A study of Mus musculus with 5 samples.

Results

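The miR-15/16 and miR-195, miR-497 family was followed through 5 of the 1105 mature miRNAs listed: mmu-miR-15a-5p, mmu-miR-15b-5p, mmu-miR-16-5p, mmu-miR-195a-5p and mmu-miR-497a-5p, written below without the species prefix. They were taken by name, in every row of a precursor that they had, which gave 6 rows of 1191 because miR-16-5p is listed at both of its precursors. The libraries hold small RNA of OP9, a stromal line of mouse bone marrow that can form adipocytes and that the labels call mesenchymal stem cells. The 2 Drosha KO libraries (genotype Drosha KO) were set against 3 empty vector libraries (genotype WT), and all 5 came from cells at day 10 of differentiation into adipocytes with 1 µM rosiglitazone, which activates PPARγ, a nuclear receptor that drives fat cell formation. The labels do not say how the knockout was made, whether it is 1 clone, or whether replicates were separate cultures, so each p-value reflects no more than library-to-library spread, which may be technical.

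Drosha is the nuclear enzyme that cuts a miRNA hairpin out of its primary transcript, after which Dicer cuts the hairpin into mature arms. The miR-15/16 family is known for restraining the cell cycle and for lowering the anti-apoptotic protein BCL2, and its members share the seed, the stretch near the 5′ end through which a miRNA pairs with its targets. Because the seed is shared, the members can pair with the same sites, and their summed level as well as each level is of interest. The series title names miR-15b, so its direction is no independent evidence.

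The mature sequences of all 5 members are from RefSeq on GRCm38.p6. They are shown because the seed unites them and the other bases, mostly those after it, tell their reads apart. Capitals mark the seed, bases 2 to 8, and each runs 5′ to 3′.
miR-15a-5p: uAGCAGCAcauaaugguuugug
miR-15b-5p: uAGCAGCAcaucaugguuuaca
miR-16-5p: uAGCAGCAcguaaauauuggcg
miR-195a-5p: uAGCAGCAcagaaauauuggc
miR-497a-5p: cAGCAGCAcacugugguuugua

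All 5 had the same seed. Compared base by base from the 5′ end, miR-16-5p and miR-195a-5p were the most alike, with 19 of 21 bases the same. miR-15a-5p and miR-15b-5p shared 18 of 22 bases. miR-15b-5p and miR-16-5p, which lie side by side in the genome, shared 14 of 22, and miR-16-5p and miR-497a-5p shared 11 of 22.

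The members come from 3 clusters of 2 hairpins each on GRCm38. Mir15b (chromosome 3, 69009772 to 69009835, plus strand) and Mir16-2 (chromosome 3, 69009902 to 69009996, plus strand) lie 66 bases apart in an intron of Smc4, which encodes a condensin subunit. Mir15a (chromosome 14, 61632027 to 61632110, minus strand) and Mir16-1 (chromosome 14, 61631880 to 61631972, minus strand) lie 54 bases apart in Dleu2, a long noncoding RNA gene, Mir15a in an intron and Mir16-1 overlapping an exon of the annotation. Mir497 (chromosome 11, 70234717 to 70234800, plus strand) and Mir195a (chromosome 11, 70235042 to 70235135, plus strand) lie 241 bases apart, inside no other GENCODE M21 gene. Of the 6 opposite, 3p arms of these hairpins, 0 were in the table, so they were not analysed here.

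The authors deposited TPM, reads divided by a length and scaled to the same sum in each library, so every value is a relative abundance among the listed miRNAs. Whole reads recovered from the TPM totalled 304722 and 277142 in the Drosha KO libraries, against 2262367, 2028962 and 1918589 in the empty vector libraries. A single read of a 22-base miRNA stood for 3.32 and 3.67 TPM in Drosha KO, and for 0.448, 0.499 and 0.528 TPM in empty vector. The Drosha transcript was not analysed here. The miRNAs known to be made without Drosha, 7 listed names, summed to 26699 and 27349 TPM in Drosha KO, against 4314, 4228 and 5736 TPM in empty vector. Most of this sum was miR-484, with 21642 and 21011 TPM in Drosha KO, against 3640, 3537 and 5105 TPM in empty vector. Next was miR-1981-5p, with 4479 and 5882 TPM in Drosha KO, against 623, 596 and 556 TPM in empty vector. miR-320-5p and miR-1224-5p were at 0 in every library. Of 10 listed marker miRNAs of blood, muscle and liver cells, 8 were at 0 in every library, those of miR-1a, miR-133, miR-142, miR-206 and miR-223. Most of these are the minor arms of their hairpins, and the abundant 3p arms of miR-1a, miR-133, miR-206 and miR-223 were not analysed here, so the zeros do not show that such cells were absent. The sum of all 10, from miR-122-5p and miR-451a, was 56.4 and 84.3 TPM in Drosha KO, against 19.7, 17.0 and 13.2 TPM in empty vector, and its part in the results was not tested.

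Within the family, the Drosha KO libraries held less miR-15b-5p and miR-497a-5p, while miR-16-5p and miR-15a-5p did not pass the test and had changes close to 0. miR-15b-5p was 3.42-fold lower in the Drosha KO group. miR-497a-5p was lower too, and miR-195a-5p was too low for a test. The order of levels was therefore different in the groups, with miR-16-5p first in Drosha KO cells and miR-15b-5p first in empty vector cells.

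miR-15b-5p had 1194 and 715 TPM in the Drosha KO libraries, against 3179, 4029 and 2591 TPM in the empty vector libraries. Both Drosha KO libraries lay below every empty vector library. These levels rest on 360 and 195 reads in the Drosha KO libraries and on 7097, 8073 and 4911 reads in the empty vector libraries. Group means were 955 ± 339 TPM in Drosha KO (SD, n = 2) and 3266 ± 723 TPM in empty vector (SD, n = 3). The log2 change was -1.80 (SE 0.26, 95% interval -2.33 to -1.26), with an adjusted p = 5.09e-06 in limma on log2(TPM + 1) with Benjamini-Hochberg (BH) adjustment over 205 tested miRNAs.

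miR-497a-5p, of the chromosome 11 cluster, had 103 and 62.3 TPM in the Drosha KO libraries, against 245, 278 and 143 TPM in the empty vector libraries. Again the groups did not overlap, though Drosha KO library 1 and empty vector library 3 came near each other. The reads behind it were few in the knockout, 31 and 17, against 547, 557 and 271 in the empty vector libraries. Means were 82.6 ± 28.6 TPM in Drosha KO (SD, n = 2) and 222 ± 70.4 TPM in empty vector (SD, n = 3), a 2.69-fold lower level. The log2 change was -1.40 (SE 0.35), with a BH-adjusted p = 0.00209 in limma. Without Drosha KO library 2 it was -1.05 and no longer passed (limma, BH-adjusted p = 0.114, the highest of 15 alternatives, which ranged down to 1.66e-14 with an equal Drosha-independent sum).

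miR-16-5p, made from hairpins beside both miR-15 genes, had 1413 and 1353 TPM in the Drosha KO libraries, against 1198, 1787 and 1319 TPM in the empty vector libraries. The Drosha KO values lay within the range of the empty vector values. The means were 1383 ± 42.5 TPM in Drosha KO (SD, n = 2) and 1435 ± 311 TPM in empty vector (SD, n = 3). The log2 change was -0.03 with a 95% interval of -0.54 to 0.48 (limma, BH-adjusted p = 0.913), which allows a Drosha KO level of 0.687 to 1.39 times the empty vector level. A decrease as large as that of miR-15b-5p lies outside this interval, which holds for the TPM as deposited only. With an equal Drosha-independent sum the log2 change was -2.55 for miR-16-5p and -4.31 for miR-15b-5p.

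miR-15a-5p, the partner of mir-16-1 in Dleu2, had 206 and 198 TPM in the Drosha KO libraries, against 151, 194 and 200 TPM in the empty vector libraries. The groups overlapped. Its means were 202 ± 5.42 TPM in Drosha KO (SD, n = 2) and 182 ± 27.1 TPM in empty vector (SD, n = 3). The log2 change was 0.16 (SE 0.31, 95% interval -0.47 to 0.80, limma, BH-adjusted p = 0.646).

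miR-195a-5p, the partner of miR-497a, was near the limit of detection. It had 0 and 1 reads in the Drosha KO libraries, against 20, 9 and 11 reads in the empty vector libraries, or 0 and 3.84 TPM against 9.39, 4.71 and 6.08 TPM. A count of 0 allows up to 3 reads, which for this miRNA is 10.4 TPM in Drosha KO library 1, above each of the 3 empty vector values. On pooled reads, the Drosha KO rate was 0.267 times the empty vector rate, with an exact 95% interval of 0.00659 to 1.57 that covers counting error only, so a difference was not detectable at this depth. Its mean over the 5 libraries was under the 5 TPM that the test required. With no such filter its log2 change was -1.77 (limma, BH-adjusted p = 0.191). It differs from miR-16-5p at 2 bases, and its reads were 0% and 0.271% of those of miR-16-5p in Drosha KO, against 0.748%, 0.251% and 0.440% in empty vector. Whether they are separate from miR-16-5p reads was not tested.

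**Figure D1:**
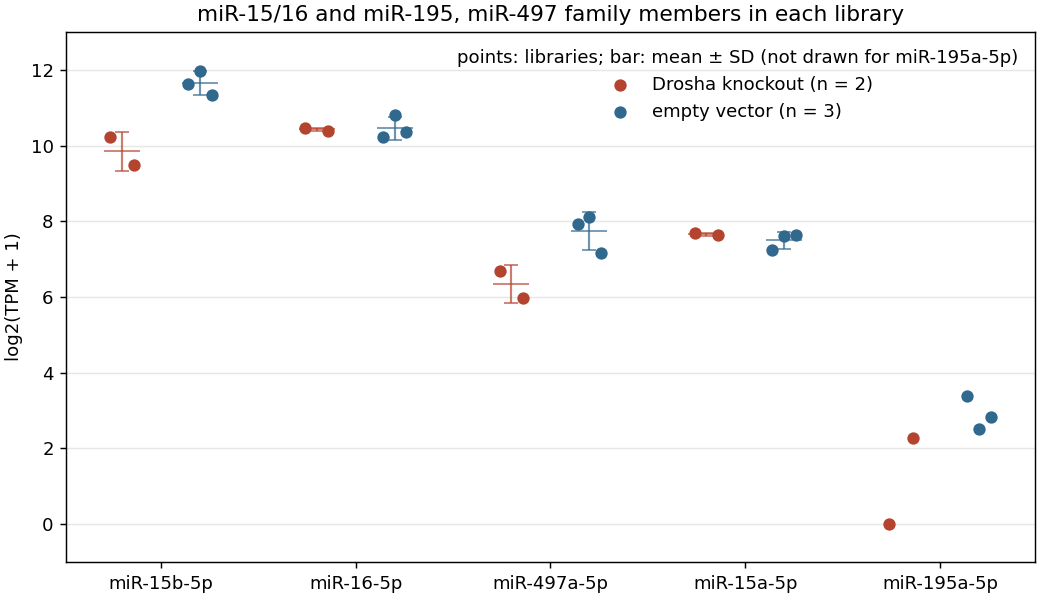
Level of each member as log2(TPM + 1) in every library, with the 2 Drosha KO libraries left of the 3 empty vector libraries; points are libraries and bars are mean ± SD, not drawn for miR-195a-5p. The groups do not overlap for miR-15b-5p and miR-497a-5p, they overlap for miR-16-5p and miR-15a-5p, and miR-195a-5p is at 0 in Drosha KO library 1.

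Of the 4 tested members, 2 were lower, 0 were higher and 2 did not pass. Over all 205 tested miRNAs, 27.3% were called lower and 27.8% higher, 55.1% in either direction, so calls were common in this comparison, and the median log2 change was -0.72 over the 4 tested members and -0.08 over all tested. Each tested member was above 5 TPM in every library. The share of all 205 tested miRNAs without overlap between groups was not computed. For miR-15b-5p and miR-497a-5p the absence of overlap is thus a description only. Ranked from the lowest change upward, miR-15b-5p had 11 of the 205 tested miRNAs below it and miR-497a-5p had 25. miR-16-5p had 104 and miR-15a-5p had 112, near the middle of the distribution.

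**Figure D2:**
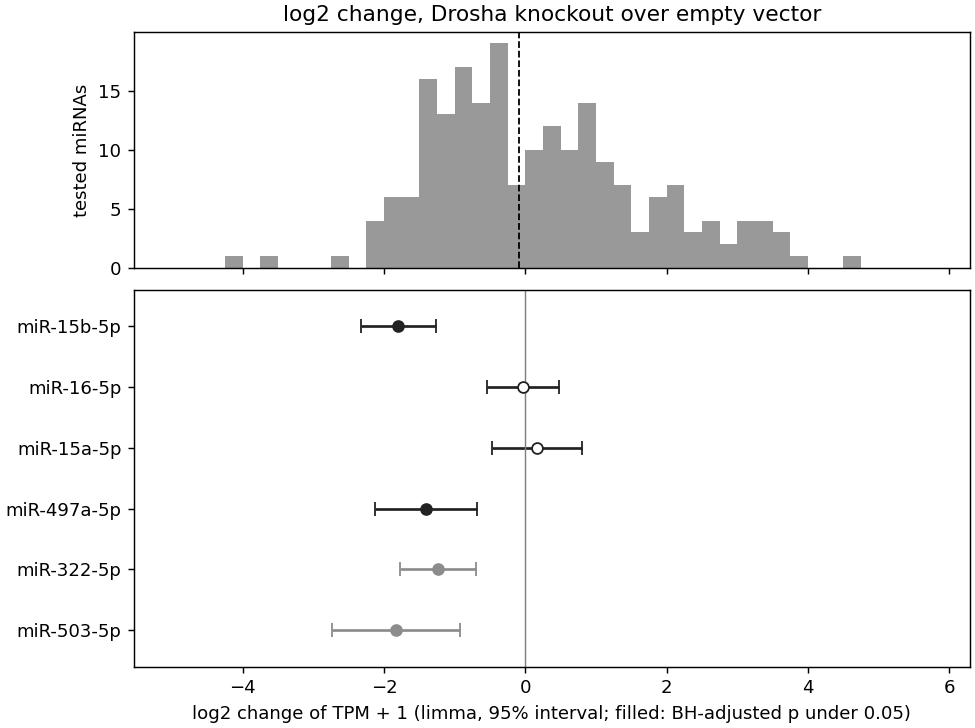
Top, the log2 changes of all 205 tested miRNAs, Drosha KO over empty vector, with their median of -0.08 dashed; bottom, the log2 change and 95% interval of the 4 tested members in black and of miR-322-5p and miR-503-5p in grey, filled where the BH-adjusted p was under 0.05. The intervals of miR-16-5p and miR-15a-5p cross 0, and the other 4 lie below it.

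A ratio of members within a library does not depend on how libraries are scaled to each other. miR-15b-5p over the mir-16-1 row of miR-16-5p was 0.845 and 0.528 in Drosha KO, against 2.65, 2.25 and 1.96 in empty vector. It was below 1 in both Drosha KO libraries and above 1 in all 3 empty vector libraries, and 3.40-fold lower in Drosha KO on the geometric mean. The exact two-sided permutation p was 0.2, the smallest that 2 against 3 libraries can give (BH-adjusted p = 0.3 over the 3 ratios that had a value in every library). The neighbour of Mir15b in Smc4 is Mir16-2, and the ratio to its row was not computed. The mir-16-2 row had 1330 and 1184 TPM in Drosha KO, against 1104, 1593 and 1193 TPM in empty vector. miR-15b-5p was below that row in both Drosha KO libraries and above it in all 3 empty vector libraries.

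miR-15b-5p over its paralogue miR-15a-5p was 5.81 and 3.61 in the Drosha KO libraries, against 21.1, 20.8 and 12.9 in the empty vector libraries. The groups were apart, by 3.90-fold on the geometric mean (exact permutation p = 0.2, BH-adjusted p = 0.3). This ratio follows from those of miR-15b-5p and miR-15a-5p to miR-16-5p, so it is no separate evidence on miR-15b-5p. The BH adjustment nevertheless counts it as a separate test. miR-15a-5p over miR-16-5p, neighbours in Dleu2, was 0.146 and 0.146 in the Drosha KO libraries, against 0.126, 0.108 and 0.152 in the empty vector libraries. Here the groups overlapped (log2 difference 0.20, exact permutation p = 0.6, BH-adjusted p = 0.6). The ratio of miR-497a-5p to miR-195a-5p could not be computed in Drosha KO library 1, where miR-195a-5p was at 0. It was 16.2 in Drosha KO library 2 and 26.1, 59.1 and 23.5 in the empty vector libraries.

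miR-16-5p entered the family sum at its mir-16-1 row only, and a sum that also held the mir-16-2 row was not computed. If reads that match both hairpins were divided between the rows, this leaves part of miR-16-5p out. Summed over the 5 members in this way, the family stood at 2916 and 2332 TPM in the Drosha KO libraries, against 4783, 6293 and 4259 TPM in the empty vector libraries. The mean was 2624 ± 413 TPM in Drosha KO (SD, n = 2) and 5111 ± 1056 TPM in empty vector (SD, n = 3), 1.95-fold lower in Drosha KO, given as a description with no test. With miR-15b-5p left out of the sum, the libraries overlapped, at 1722 and 1617 TPM in Drosha KO and 1603, 2264 and 1668 TPM in empty vector.

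The make-up of the family differed accordingly, again with miR-16-5p at the mir-16-1 row only. If reads were divided between the rows, the shares of the other members are too high. miR-15b-5p gave 41.0% and 30.7% of the summed TPM in the Drosha KO libraries, against 66.5%, 64.0% and 60.8% in the empty vector libraries. As shares of reads, the 95% Wilson intervals for miR-15b-5p were 37.8% to 44.2% and 27.2% to 34.4% in Drosha KO libraries 1 and 2, so these also differed from each other beyond counting error. miR-16-5p gave 48.5% and 58.0% in the Drosha KO libraries, against 25.1%, 28.4% and 31.0% in the empty vector libraries. miR-15a-5p gave 7.05% and 8.49% in Drosha KO (mean 7.77%), against 3.15%, 3.08% and 4.71% in empty vector (mean 3.64%). miR-497a-5p gave 3.53% and 2.67% in Drosha KO (mean 3.10%), against 5.12%, 4.42% and 3.36% in empty vector (mean 4.30%). For the share of miR-497a-5p the groups overlapped.

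**Figure D3:**
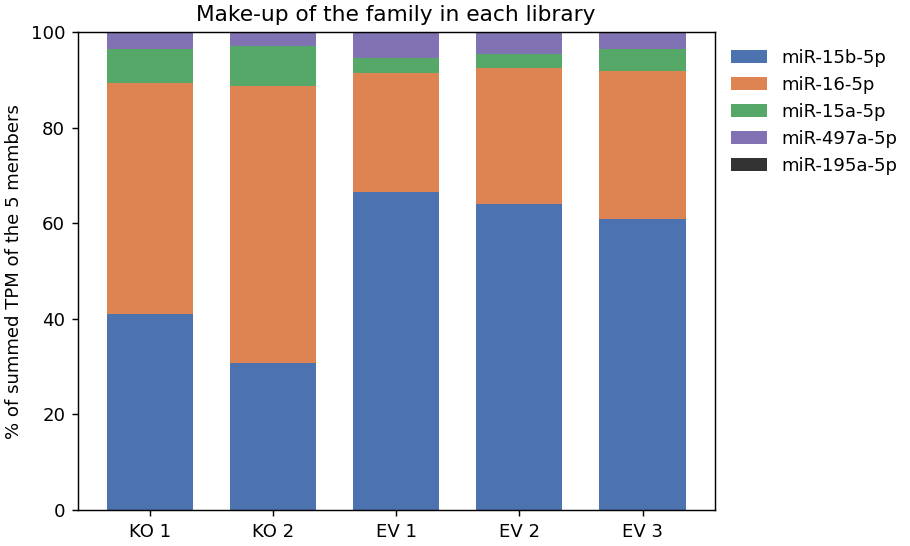
Share of each member in the summed TPM of all 5, in percent, for the 2 Drosha KO libraries (left) and the 3 empty vector libraries; miR-195a-5p, under 0.2% in each library, is too thin to be seen. miR-15b-5p takes 30.7% to 41.0% in Drosha KO and 60.8% to 66.5% in empty vector libraries.

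In Drosha KO cells the order of levels was miR-16-5p, miR-15b-5p, miR-15a-5p, miR-497a-5p and miR-195a-5p, and the ranges of neighbours in this order did not overlap with miR-16-5p taken at the mir-16-1 row. At the mir-16-2 row miR-16-5p had 1330 and 1184 TPM in Drosha KO, which overlaps the 1194 and 715 TPM of miR-15b-5p. In empty vector cells the order was miR-15b-5p, miR-16-5p, miR-497a-5p, miR-15a-5p and miR-195a-5p. There miR-497a-5p (143 to 278 TPM) and miR-15a-5p (151 to 200 TPM) overlapped, and the other neighbours did not. Among all listed mature miRNAs, miR-15b-5p was number 41 by mean TPM in Drosha KO and number 31 in empty vector. miR-16-5p was number 39 in Drosha KO and 40 in empty vector, and miR-497a-5p was number 99 in Drosha KO and 72 in empty vector.

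The copies of miR-16 give the same mature sequence from different hairpins, shown here because reads can tell the copies apart only where they extend beyond that sequence. Capitals mark the mature 5p arm within each hairpin, from RefSeq on GRCm38.p6. The coordinates are those given above.
Mir16-1: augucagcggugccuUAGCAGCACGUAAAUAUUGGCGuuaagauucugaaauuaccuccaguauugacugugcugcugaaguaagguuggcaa
Mir16-2: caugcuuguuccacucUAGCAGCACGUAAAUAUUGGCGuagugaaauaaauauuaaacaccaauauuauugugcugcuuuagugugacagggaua

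Directly before the mature arm the hairpins share 0 bases, and directly after it they share 1 base. At the mir-16-1 row, miR-16-5p had 426 and 369 reads in the Drosha KO libraries, against 2675, 3581 and 2500 reads in the empty vector libraries. At the mir-16-2 row it had 401 and 323 reads in the Drosha KO libraries, against 2464, 3192 and 2262 reads in the empty vector libraries. The mir-16-1 row was the higher in all 5 libraries, by 25 and 46 reads in Drosha KO and by 211, 389 and 238 reads in empty vector.

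The ratio of the mir-16-1 row to the mir-16-2 row was 1.06 and 1.14 in the Drosha KO libraries, against 1.09, 1.12 and 1.11 in the empty vector libraries. It averaged 1.10 ± 0.057 in Drosha KO (SD, n = 2) and 1.10 ± 0.018 in empty vector (SD, n = 3), and the Drosha KO values lay on either side of the empty vector values. If every read of the mir-16-2 row was also counted at mir-16-1, the reads at mir-16-1 alone made up 5.87% and 12.5% of its reads in Drosha KO, against 7.89%, 10.9% and 9.52% in empty vector. At the mir-16-2 row the log2 change was -0.03 (limma, BH-adjusted p = 0.918), as at mir-16-1. The table does not say how reads that match both hairpins were assigned, so how much of miR-16-5p came from beside miR-15b and how much from beside miR-15a cannot be told apart in either group. Of the 27 tested miRNAs listed at several precursors, 22 had rows closer to each other than the rows of miR-16-5p and 4 had rows farther apart, and 10 had identical rows.

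**Figure D4:**
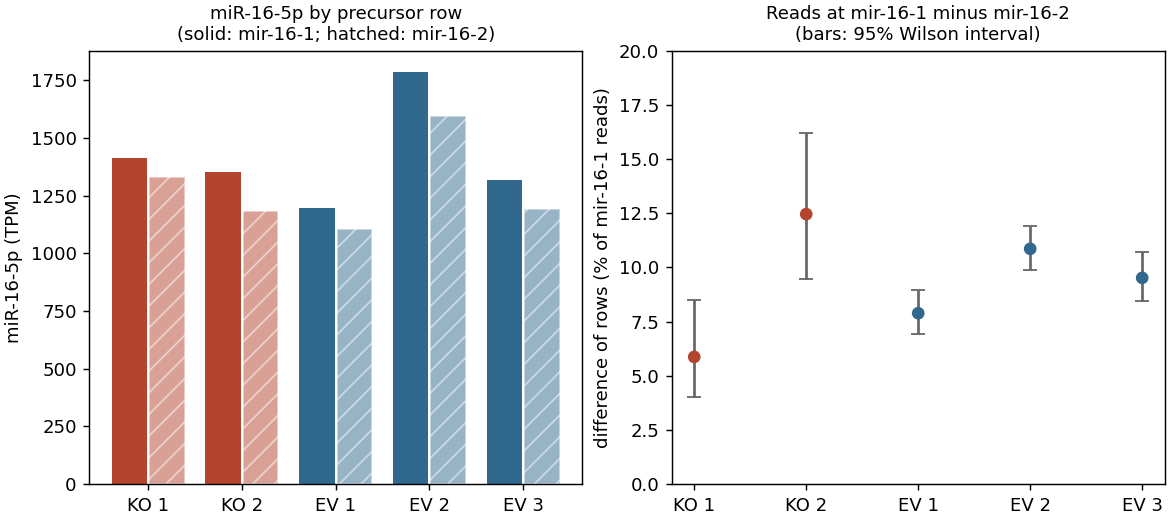
Left, miR-16-5p in TPM at the mir-16-1 row (solid) and the mir-16-2 row (hatched) in each library, Drosha KO left of empty vector; right, the reads at mir-16-1 minus those at mir-16-2 as a percentage of the mir-16-1 reads, with 95% Wilson intervals that assume every mir-16-2 read is also counted at mir-16-1. The difference is 5.87% and 12.5% in the Drosha KO libraries, on either side of the 7.89% to 10.9% of the empty vector libraries.

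Beyond the 5 members, the listed miRNAs were searched by sequence for AGCAGC starting at base 1, 2 or 3 of the mature RNA, read in the 5′ to 3′ direction of the RNA alone. Of 938 listed names with a RefSeq sequence, 10 (1.07%) held it, the members and 5 others. RefSeq holds 3 more such miRNAs that were not analysed here. The search found miR-322-5p and miR-503-5p, which are neighbours on chromosome X, and miR-195b, miR-6353 and miR-6419, which were at 0 TPM in every library.
miR-322-5p: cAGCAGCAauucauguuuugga
miR-503-5p: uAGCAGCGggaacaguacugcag

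Capitals mark bases 2 to 8, and the seed of miR-503-5p differs from the family seed at its last base. miR-322-5p, known for slowing the cell cycle, had 5673 and 3186 TPM in the Drosha KO libraries, against 10443, 13255 and 7197 TPM in the empty vector libraries. miR-503-5p had 28.6 and 21.0 TPM in the Drosha KO libraries, from 9 and 6 reads, against 92.6, 157 and 49.4 TPM in the empty vector libraries. Both were called lower, so that 2 of these 2 tested relatives were lower, beside 27.3% of all tested. Neither overlapped between groups, but the share of all tested miRNAs without overlap was not computed. The log2 changes were -1.23 for miR-322-5p (limma, BH-adjusted p = 0.000526) and -1.83 for miR-503-5p (limma, BH-adjusted p = 0.00147). Without Drosha KO library 2 neither passed, with log2 changes of -0.82 for miR-322-5p and -1.62 for miR-503-5p. Per library, miR-322-5p was the most abundant of the 10 in every library.

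The miRNAs nearest to each member in pattern were taken by the root mean square difference, over the 5 libraries, of log2(TPM + 1) centred on each miRNA's own mean. For miR-15b-5p they were miR-669o-5p (0.063 on the log2 scale), miR-466c-5p (0.11) and miR-378c (0.17). For miR-497a-5p they were miR-322-5p (0.12), miR-669b-5p (0.13) and miR-466d-5p (0.17). For miR-16-5p they were miR-146a-5p (0.11), let-7b-5p (0.17) and miR-15a-5p (0.18). For miR-15a-5p they were miR-33-5p (0.13), miR-193a-5p (0.14) and miR-29c-5p (0.17). By the same measure miR-15b-5p was 0.25 from miR-497a-5p, 0.90 from miR-16-5p at the mir-16-1 row and 1.02 from miR-15a-5p. The distance to the mir-16-2 row, from the hairpin beside Mir15b, was not computed.

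The direction for miR-15a-5p and the call for miR-16-5p depended on the scaling, while miR-15b-5p and miR-497a-5p were lower under all 4 scalings. The median log2 change of all tested miRNAs was -0.08 as deposited, -0.16 under median-of-ratios rescaling, -0.45 under TMM rescaling and -2.53 when every library was given the same total of Drosha-independent miRNAs. The calls went with it, with 57 miRNAs higher and 56 lower as deposited, 43 higher and 81 lower under TMM, and 3 higher and 160 lower with the equal Drosha-independent total. The log2 change of miR-15b-5p was -1.80, -1.87, -2.17 and -4.31 in that order of scalings. For miR-16-5p it was -0.03, -0.11, -0.40 and -2.55, and for miR-15a-5p it was 0.16, 0.09, -0.20 and -2.34. Relative to the summed Drosha-independent miRNAs, mostly miR-484, all 4 tested members were thus lower in the Drosha KO group, each past the threshold (limma, BH). miR-16-5p and miR-15a-5p were close to the median miRNA as deposited. Rescaling moves every miRNA of a library equally, so this distance is nearly fixed by construction and the other scalings add no evidence on it.

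**Figure D5:**
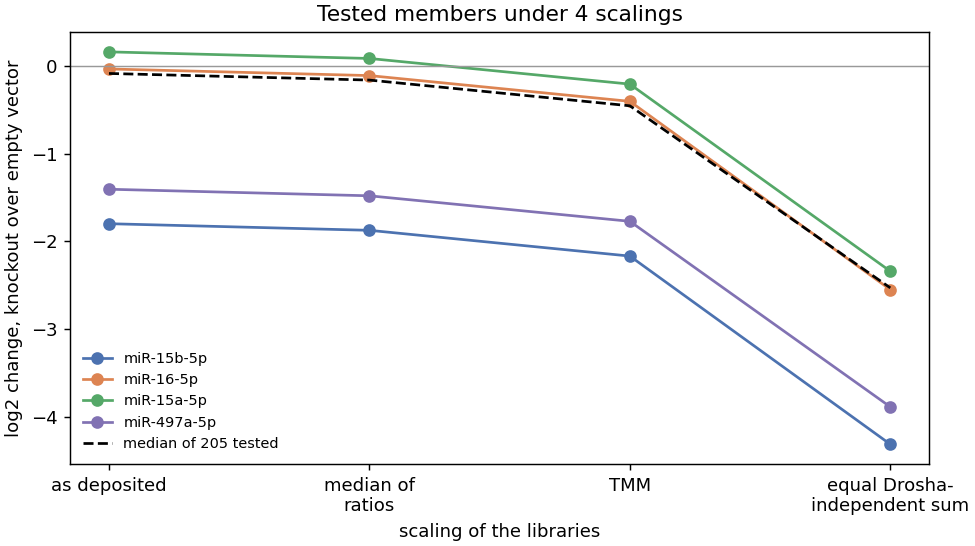
Log2 change, Drosha KO over empty vector, of the 4 tested members (points and lines) and the median of all 205 tested miRNAs (dashed) as deposited and under 3 rescalings of the libraries. All lines fall together because rescaling moves every miRNA of a library equally, so the distances between lines are nearly fixed by construction. miR-16-5p lies near the median, and miR-15a-5p changes sign.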

How the data were processed

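Small RNA libraries of 2 Drosha KO and 3 empty vector samples were analysed from a table of TPM that the authors deposited for 1191 pairs of a mature miRNA and a precursor. Per the submitters' processing notes, Bowtie2 2.5.1 and the GRCm38 build are named, with no role stated. The counting tool, its filters and how unique molecular identifiers were used: not given in the sources used here. Reads were recovered by searching a length of 15 to 30 bases at which all values of a pair were whole within 1e-06; 100% of values above 0 came out whole. These totals count a read at each listed precursor. Intervals and floors cover counting error only.

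For each mature miRNA the precursor row with the highest mean was used. limma 3.58.1 in R 4.3.3, with a mean-variance trend, was fitted on log2(TPM + 1) for the 205 miRNAs whose mean was 5 TPM or more, two-sided, with BH adjustment and a threshold of 0.05. For low miRNAs this scale gives too small a fold change; folds given as such are ratios of mean TPM or, for ratios between members, of geometric means. Ratios were compared by exact permutation tests. The limma fit was also run on simulated reads with known changes, but the outcome is not given here and no result rests on it. TMM and median-of-ratios factors were computed from the TPM in Python 3.11.15. The named miRNAs were the members, the other listed miRNAs with AGCAGC at the start and the 3 nearest in pattern to each tested member. Marker miRNAs and those made without Drosha were named only to describe their sums. The members and lists were chosen with earlier results of these data known.

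Alternatives were other pseudocounts (0.1 and 10), no filter, 3 rescalings, the lowest precursor row, robust empirical Bayes, a replicate block, leaving out each library, and thinning to 277142 reads per library.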

Additional observations from a re-analysis of the deposited data

How the results depend on the processing

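miR-15b-5p was called lower under all 15 alternatives run, with log2 changes from -1.43 to -2.17 when 1 library was left out. miR-497a-5p lost its call only without Drosha KO library 2, within a range of -1.05 to -1.76 over the libraries left out. miR-16-5p ranged from -0.15 to 0.14 over the libraries left out, changing sign without empty vector library 2 (0.14), was -0.40 under TMM, and passed as lower (-2.55) only with an equal Drosha-independent sum. miR-15a-5p changed sign under TMM (-0.20) and with an equal Drosha-independent sum (-2.34). This last rescaling left 3 miRNAs higher and 160 lower, against 57 and 56 as deposited, and TMM gave 43 higher and 81 lower. The number called lower was 34 to 52 when 1 library was left out, 34 both without Drosha KO library 2 and without empty vector library 1. The cause was not tested, except that rescaling moves every miRNA of a library equally by construction. The ratio of miR-15b-5p to miR-16-5p kept its direction under all 7 alternatives run for it. For miR-195a-5p the untested difference moved with the pseudocount, from -0.50 at 10 to -3.38 at 0.1, and from -2.90 to -0.63 as either Drosha KO library was left out.

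The correlation of the deviations of same-numbered libraries from their group means was -0.12 for number 1 and -0.14 for number 2. The deviations of the 2 Drosha KO libraries are exact opposites, so these values cannot decide whether replicates were paired. With the replicate block, 39 miRNAs were called higher and 35 lower, and no member's call changed (miR-15b-5p -1.95, miR-497a-5p -1.69). No Drosha KO library has number 3, so empty vector library 3 does not enter these log2 changes. They equal those obtained without that library and are no separate check. The Drosha KO libraries had 7.11-fold fewer recovered reads than the empty vector libraries, and miR-195a-5p had 0 and 1 reads there.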
